A study of Homo sapiens with 8 samples.

Results

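The genes described here are the cell-surface heparan sulfate carriers and heparan sulfate-editing enzymes of H9 human embryonic stem cells (hESCs), 10 genes of the 20344 gene symbols in 2 deposited RNA-seq tables. They are the glypicans GPC1, GPC2, GPC3, GPC4 and GPC6, the syndecans SDC1, SDC2 and SDC4, and the sulfatases SULF1 and SULF2. They were chosen by name, with the low level of SULF1 after ETV4 knockdown (KD) already known, so the KD values of these genes are given as a description without a test. All 10 were listed in both tables, and all 10 passed the filter on low counts in both. H9 (WA09) is an established hESC line. In the crowding experiment, 2 libraries of low-density H9 cells (labelled small) and 2 libraries of high-density H9 cells (labelled crowded, with attachment limited to small drops of Matrigel) were sequenced. In the KD experiment, 2 libraries of H9 cells with a control hairpin (shControl) and 2 libraries of H9 cells with a hairpin against ETV4 (shETV4) were sequenced. The hairpin used in each shETV4 library and the time after infection are not given in the sources used here. Total counts were 50359703 and 59957148 in the low-density libraries, 55365694 and 62410168 in the high-density libraries, 55028105 and 52155822 with shControl, and 56630652 and 52790532 with shETV4.

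Heparan sulfate is a long, sulfated sugar chain that binds growth factors such as FGFs, WNTs and BMPs at the cell surface. Glypicans carry it on core proteins held in the membrane by a lipid (GPI) anchor, whereas syndecans carry it on transmembrane cores that reach the cytoskeleton. SULF1 and SULF2 are secreted sulfatases that remove 6-O-sulfate groups from finished chains and thereby alter which ligands bind. ETV4 is an ETS-family transcription factor of the PEA3 group and a target of FGF and ERK signalling.

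ETV4 itself was measured first, as a check of the labels. With shControl it was at 90.8 and 95.1 FPKM (fragments per kilobase of transcript, scaled by the mapped reads of the library), and with shETV4 at 45.6 and 40.9 FPKM. The log2 fold change was -1.15 (SE 0.073, adjusted p = 1.6e-04, quasi-likelihood test of edgeR, Benjamini-Hochberg method), so the KD left less than the control level in both libraries but did not remove the transcript. In the crowding experiment ETV4 was at 73.2 and 72.6 FPKM at low density and at 54.2 and 53.9 FPKM at high density. That log2 fold change of -0.49 (adjusted p = 9.42e-07, same test) was just short of the threshold on size, an absolute log2 fold change over 0.5. POU5F1, the defining factor of the pluripotent state, was at 1160, 1110, 1090 and 1050 FPKM in the low- and high-density libraries and at 1020, 1180, 1290 and 1400 FPKM in the shControl and shETV4 libraries, so all 8 libraries carried the hESC marker at a high level.

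On GRCh37, the build of the deposited tables, GPC3 (chrX:132669773-133121127) and GPC4 (chrX:132434131-132549517) lie next to each other on the minus strand, 120255 bases apart. GPC6 lies on the plus strand at chr13:93879060-95060274, 353124 bases from its relative GPC5. GPC1 lies at chr2:241375080-241407493 (plus strand) and GPC2 at chr7:99767229-99775004 (minus strand).

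ETS factors bind DNA around the letters GGAA, and AGGAAG and CCGGAA are longer forms of that core, the first known as the PEA3 motif, so the promoters of these genes were read for all 3 on both strands (each longer match is also a GGAA). RefSeq promoter windows on GRCh38.p14, from 250 bases before to 50 bases after the transcription start, were found for 7 of the 10 genes (11 windows), those of GPC1, GPC2, GPC4, GPC6, SDC1, SDC4 and SULF2. AGGAAG stood in 6 of the 11 windows, which belong to 5 genes (GPC2, GPC4, GPC6, SDC1 and SULF2), against 33.6% of 35116 promoters of the same length. The shorter GGAA stood in windows of 6 genes and in 95.5% of all promoters, and CCGGAA in 1 window (SDC4) and in 17.2% of all promoters. A match of letters is a description and no evidence of binding. Printed here, 5′ to 3′ along each gene's strand with AGGAAG or its complement CTTCCT in capitals, are 3 glypican promoters: GPC4, the most abundant member, at chrX:133415440-133415739 (minus strand), GPC6, lower after crowding and in the shETV4 libraries, at chr13:93226557-93226856 (plus strand), and GPC2, the glypican that rose with crowding, at chr7:100177332-100177631 (minus strand).
GPC4: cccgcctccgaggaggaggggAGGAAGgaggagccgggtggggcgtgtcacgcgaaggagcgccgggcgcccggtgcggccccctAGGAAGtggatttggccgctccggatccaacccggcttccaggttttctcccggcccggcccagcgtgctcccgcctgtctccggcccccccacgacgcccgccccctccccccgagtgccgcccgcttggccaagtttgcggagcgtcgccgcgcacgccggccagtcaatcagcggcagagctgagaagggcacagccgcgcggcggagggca
GPC6: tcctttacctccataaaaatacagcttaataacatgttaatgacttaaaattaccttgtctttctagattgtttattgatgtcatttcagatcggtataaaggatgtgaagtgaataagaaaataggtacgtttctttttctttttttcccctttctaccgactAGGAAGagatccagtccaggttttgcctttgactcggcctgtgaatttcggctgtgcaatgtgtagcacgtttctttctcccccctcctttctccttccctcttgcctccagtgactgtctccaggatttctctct
GPC2: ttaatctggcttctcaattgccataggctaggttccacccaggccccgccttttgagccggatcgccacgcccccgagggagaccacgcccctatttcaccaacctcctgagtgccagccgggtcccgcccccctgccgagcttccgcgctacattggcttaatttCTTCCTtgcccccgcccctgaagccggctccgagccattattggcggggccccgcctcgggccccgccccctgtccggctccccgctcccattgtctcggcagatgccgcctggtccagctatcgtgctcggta

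Of the syndecans, SDC1 is at chr2:20400558-20425194 and SDC4 at chr20:43953928-43977064, both on the minus strand, and SDC2 is at chr8:97506041-97624018 on the plus strand. SULF1 is at chr8:70378859-70573150 (plus strand), and SULF2 is at chr20:46284941-46415360 (minus strand). GPC1, GPC3 and GPC6 overlap annotated antisense genes, and SULF2 overlaps NCOA3 on the other strand, as ETV4 overlaps DHX8. Since counting by strand is not stated, part of the counts of these genes may belong to the other strand.

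GPC4 had by far the highest level of the 10 genes in every library. In the low-density cells its mean was 94.5 ± 3.54 FPKM (SD, n = 2), followed by SDC4 at 33.6 ± 0.912, SDC2 at 23.9 ± 0.331, SDC1 at 23.6 ± 0.673, and GPC3 at 17.3 ± 0.0737 FPKM. Below them stood SULF2 at 11.3 ± 0.35, GPC2 at 9.80 ± 0.192, GPC1 at 9.52 ± 0.0171, GPC6 at 4.91 ± 0.115 and SULF1 at 1.29 ± 0.042 FPKM. Of the neighbours in this order, only SDC2 and SDC1 overlapped in their library values. At high density the order changed in the middle and at the bottom: SDC1, GPC2 and GPC3 lay together at 16.7, 16.5 and 15.8 FPKM, with overlapping library values between neighbours, SDC2 came after them at 14.1 FPKM, and SULF1 at 3.86 FPKM stood above GPC6 at 3.12 FPKM. With shControl the order was GPC4 (80.6 FPKM), SDC4 (23.0), GPC3 (20.3), SDC2 (16.5), SDC1 (16.3), GPC2 (12), GPC1 (8.68), SULF2 (6.36), SULF1 (3.76) and GPC6 (2.52), where SDC2 and SDC1 overlapped. With shETV4, GPC4 reached 136 FPKM, GPC3 was above SDC4 (29.1 and 20.4 FPKM), and SULF1 was last at 0.691 FPKM. The tables were normalized separately, so FPKM levels of the 2 experiments are only set side by side.

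**Figure D1:**
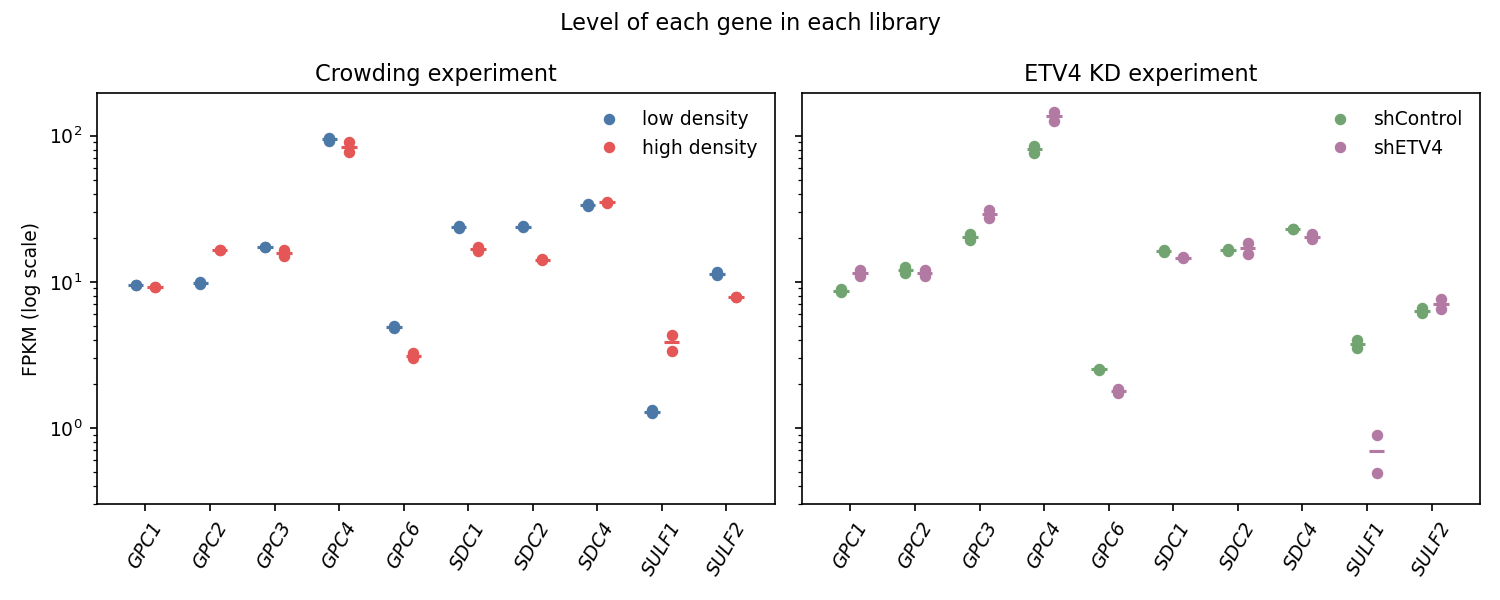
FPKM (log scale) of the 10 genes in each library, for the crowding experiment (left) and the ETV4 KD experiment (right). Each point is a library and each short line the mean of 2. GPC4 is highest in all 8 libraries, and SULF1 moves furthest on this scale with density, from 1.29 to 3.86 FPKM. Between shControl and shETV4 it goes from 3.76 to 0.691 FPKM, a low level that entered the choice of the genes.

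Crowding changed 6 of the 10 genes. Calls needed a log2 fold change over 0.5 in size with an adjusted p below 0.05. Of the 6, 2 rose (GPC2 and SULF1) and 4 fell (GPC6, SDC1, SDC2 and SULF2). Of all 17672 genes tested, 16.1% were called by the same rule, 10.7% as higher and 5.47% as lower. As a median, the 10 genes had a log2 fold change of -0.21, against 0.0032 over all genes tested. All 10 had FPKM values that did not overlap between the densities, as did 70.2% of all genes tested. With 2 libraries against 2, the smallest 2-sided exact permutation p for a single gene is 0.333, so the adjusted p-values rest on the spread shared across genes by edgeR. The study describes its experiments in general as repeated independently, but says nothing of these libraries in particular, so the p-values are to be taken as measuring the spread between these libraries, which may be technical. In bulk RNA, fewer cells of a type and less RNA per cell cannot be told apart.

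Among the glypicans, GPC2 rose and GPC6 fell, while GPC1, GPC3 and GPC4 stayed under the threshold on size. GPC2, a glypican first known from developing neurons, was at 9.66 and 9.93 FPKM at low density and at 16.5 and 16.6 FPKM at high density. Both crowded libraries were well above both low-density libraries, a 1.62-fold rise (log2 fold change 0.70, SE 0.0685, adjusted p = 1.02e-07, quasi-likelihood test of edgeR, Benjamini-Hochberg method). GPC6, a broadly expressed glypican, went the other way, from 4.83 and 4.99 FPKM to 3.24 and 2.99 FPKM. This was a 1.64-fold fall (log2 fold change -0.71, SE 0.0737, adjusted p = 2.1e-07, same test). GPC4, which modulates FGF and WNT signals, was at 97.0 and 92.0 FPKM at low density and at 90.1 and 77.1 FPKM at high density. Of these, 1 crowded library lay close to the low-density range. Its log2 fold change of -0.23 (SE 0.0659, adjusted p = 0.0104, same test) was under the threshold on size, and was -0.12 without high density replicate 2 (adjusted p = 0.0536) and -0.36 without high density replicate 1. GPC3, the glypican lost in Simpson-Golabi-Behmel overgrowth syndrome, was at 17.2 and 17.3 FPKM and then at 16.6 and 15.1 FPKM (log2 fold change -0.18, adjusted p = 0.0403, same test), also under that threshold, and at -0.11 without high density replicate 2 (adjusted p = 0.238). GPC1 was nearly level, with 9.51 and 9.54 FPKM against 9.17 and 9.21 FPKM (log2 fold change -0.11, adjusted p = 0.211, same test).

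Of the syndecans, SDC1 and SDC2 fell and SDC4 did not pass the test. SDC2, a syndecan with roles in matrix assembly and in FGF and TGF-beta signalling, was at 23.7 and 24.1 FPKM at low density and at 14.3 and 14.0 FPKM at high density. The libraries of each density lay within a narrow band, and the difference was 1.76-fold (log2 fold change -0.81, SE 0.0582, adjusted p = 1.11e-09, quasi-likelihood test of edgeR, Benjamini-Hochberg method). SDC1, the main syndecan of epithelial cells, went from 23.2 and 24.1 FPKM to 17.2 and 16.2 FPKM, a 1.47-fold fall (log2 fold change -0.55, SE 0.0602, adjusted p = 4.36e-07, same test). It was near the threshold on size: the call was lost without high density replicate 2 (log2 fold change -0.497) and with limma on log2(FPKM + 0.5) (-0.49) or log2(FPKM + 1) (-0.48). SDC4, the syndecan of focal adhesions, was at 33.0 and 34.3 FPKM at low density and at 35.4 and 34.6 FPKM at high density. Its fitted log2 fold change from counts was -6e-05 (SE 0.0564, adjusted p = 0.999, same test).

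The SULF enzymes moved in opposite directions. SULF1 was at 1.32 and 1.26 FPKM at low density (419 and 479 counts) and at 3.37 and 4.35 FPKM at high density (1172 and 1725 counts). Both crowded libraries exceeded both low-density libraries by a wide margin, and the crowded pair differed more between themselves than the low-density pair. The rise was 2.90-fold (log2 fold change 1.54, SE 0.113, adjusted p = 7.59e-09, quasi-likelihood test of edgeR, Benjamini-Hochberg method), and between 1.35 and 1.70 on the log2 scale with each library left out in turn. It was the largest change of the 10 genes, although 291 of all genes tested had a higher log2 fold change. SULF2 was at 11.6 and 11.1 FPKM at low density and at 7.93 and 7.84 FPKM at high density, a 1.54-fold fall (log2 fold change -0.62, SE 0.0654, adjusted p = 2.48e-07, same test). With limma on log2(FPKM + 0.5) the fall of SULF2 was -0.49, below the threshold on size.

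Between shControl and shETV4, SULF1 was lower and the glypicans GPC3 and GPC4 were higher by more than 0.5 on the log2 scale. In the fit across all genes these were the 3 of the 10 past the thresholds, beside 13.0% of 17879 genes tested (5.88% higher and 7.10% lower). The count is a description from which nothing is read, because the low level of SULF1 in this comparison entered the choice of the genes. FPKM values did not overlap for 7 of the 10 genes, and for 63.3% of all genes tested. The median log2 fold change of the 10 genes was -0.0052, against -0.0013 over all genes tested.

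SULF1 was at 4.01 and 3.5 FPKM with shControl (1402 and 1132 counts) and at 0.894 and 0.489 FPKM with shETV4 (299 and 159 counts). Both shETV4 libraries were far below both shControl libraries, by 5.51-fold (log2 fold change -2.46, SE 0.227). Leaving out each library in turn gave log2 fold changes between -2.92 and -2.12. SULF2 was at 6.62 and 6.10 FPKM with shControl and at 6.52 and 7.65 FPKM with shETV4, so the groups overlapped (log2 fold change 0.16, SE 0.117).

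Of the glypicans, GPC4 and GPC3 were higher in both shETV4 libraries, GPC6 was lower and GPC2 overlapped. GPC4 was at 76.0 and 85.2 FPKM with shControl and at 127 and 145 FPKM with shETV4 (log2 fold change 0.76, SE 0.097). Its neighbour on the X chromosome, GPC3, was at 19.2 and 21.4 FPKM and then at 27.2 and 31.0 FPKM (log2 fold change 0.53, SE 0.104). GPC1 was at 8.86 and 8.50 FPKM and then at 10.9 and 12.1 FPKM (log2 fold change 0.41, SE 0.0999). These 3 genes were each highest in shETV4 replicate 2 and next in shETV4 replicate 1. GPC6 was at 2.50 and 2.54 FPKM with shControl and at 1.73 and 1.85 FPKM with shETV4 (log2 fold change -0.49, SE 0.111). GPC2 was at 11.4 and 12.6 FPKM and then at 12 and 10.9 FPKM (log2 fold change -0.07, SE 0.0925). GPC3, GPC1 and GPC6 lay close to the threshold of 0.5, and single libraries decided on which side. GPC3 was at 0.46 without shControl replicate 1 and at 0.40 without shETV4 replicate 2, GPC6 was at -0.57 without shETV4 replicate 2, and GPC1 was at 0.52 without shETV4 replicate 1.

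SDC1, SDC2 and SDC4 differed little between the hairpins. SDC1 was at 16.0 and 16.6 FPKM with shControl and at 14.7 and 14.5 FPKM with shETV4 (log2 fold change -0.15, SE 0.079). SDC2 was at 16.2 and 16.8 FPKM and then at 15.6 and 18.5 FPKM, with 1 shETV4 library on each side of the controls (log2 fold change 0.06, SE 0.108). SDC4 was at 22.9 and 23.1 FPKM and then at 21.1 and 19.7 FPKM (log2 fold change -0.17, SE 0.0775).

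**Figure D2:**
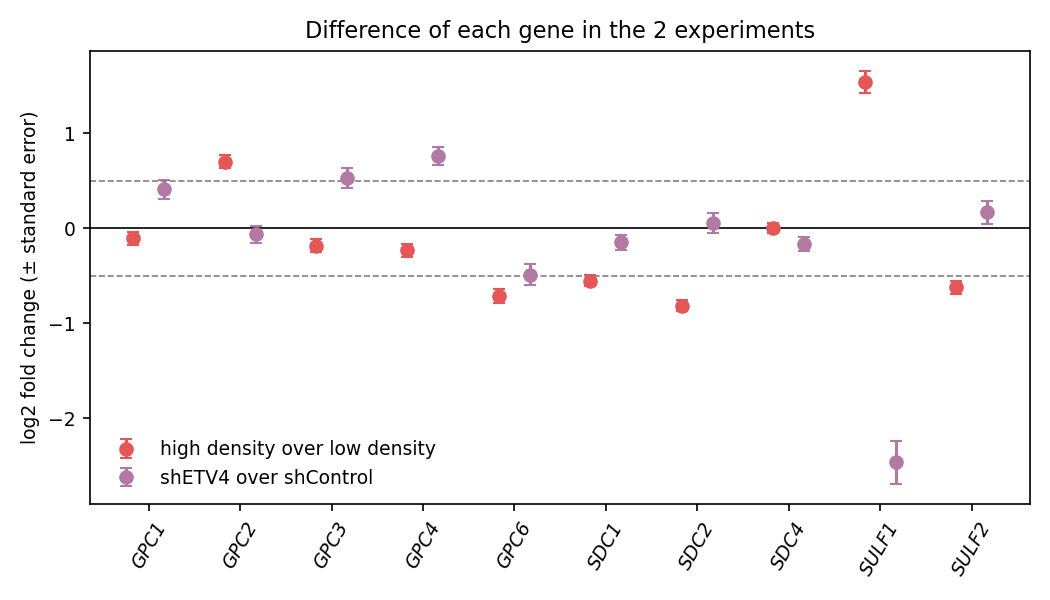
Log2 fold change of each gene (edgeR) after crowding and between shETV4 and shControl. Bars are standard errors, and dashed lines mark the threshold of 0.5 in either direction. SULF1 is the point furthest from 0 after crowding, at 1.54. Its value of -2.46 between shETV4 and shControl entered the choice of the genes and is no result. GPC4 lies at -0.23 and 0.76.

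SULF1 thus rose with density and was lower with shETV4. This pattern was not particular to SULF1. Of 17206 genes tested in both experiments, 293 (1.7%) were called higher after crowding and lower after KD, and 124 (0.721%) higher after both. Whether the effects of crowding and KD on a gene differ was not tested, since the tables were normalized separately.

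Since the SULF enzymes act on the same substrate, their shares were compared per library. SULF1 made up 10.2% of the summed SULF1 and SULF2 FPKM in each low-density library, and 29.8% and 35.7% in the high-density libraries. It made up 37.7% and 36.5% with shControl and 12.1% and 6.01% with shETV4. The sum of both enzymes moved much less with density, at 12.9 and 12.3 FPKM and then at 11.3 and 12.2 FPKM, since SULF2 fell as SULF1 rose. It was 10.6 and 9.60 FPKM with shControl and 7.42 and 8.14 FPKM with shETV4.

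**Figure D3:**
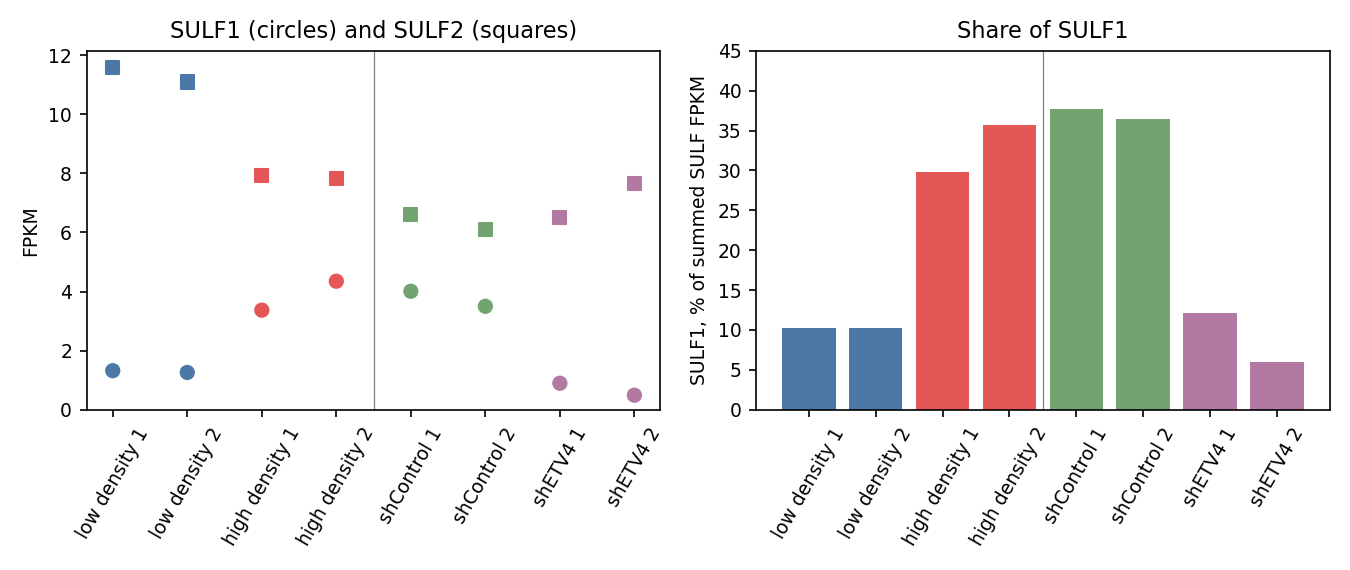
Left, FPKM of SULF1 (circles) and SULF2 (squares) in each of the 8 libraries. Right, SULF1 as a percentage of the summed FPKM of both. The share of SULF1 is 10.2% in both low-density libraries, 29.8% and 35.7% in the high-density libraries, 37.7% and 36.5% with shControl, and 12.1% and 6.01% with shETV4.

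The summed glypican FPKM was 138 and 134 in the low-density libraries, 136 and 121 in the crowded libraries, 118 and 130 with shControl, and 179 and 201 with shETV4. GPC4 accounted for most of it, between 63.7% and 72.2% over the 8 libraries. GPC2 made up 6.99% and 7.42% of the glypican sum at low density and 12.1% and 13.7% at high density. The summed FPKM of the 3 syndecans was 79.8 and 82.6 at low density and 66.9 and 64.8 at high density. With that lower sum the share of SDC4 was higher, at 52.9% and 53.4% against 41.3% and 41.5%. With shControl the syndecan sum was 55.1 and 56.4 FPKM, and with shETV4 it was 51.4 and 52.7 FPKM.

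The genes whose profile over the 8 libraries lay nearest to SULF1 were BTN3A2, MEIOB, IZUMO2, DPPA5 and MAP3K14-AS1. Likeness was the Euclidean distance of log2 CPM centred within each table, over 12923 genes, and a flat profile was 3.0 from SULF1. BTN3A2, a butyrophilin, was nearest at 0.792, with log2 fold changes of 1.03 after crowding and -1.90 after KD. MEIOB, a meiosis gene, was at 0.817 (log2 fold changes 1.55 and -1.68), and IZUMO2, of the family of the sperm protein IZUMO1, was at 0.933 (2.1 and -1.71). DPPA5, a marker of early pluripotent cells, was at 0.96 (1.19 and -1.74), and the antisense RNA MAP3K14-AS1, whose counts may hold reads of MAP3K14, was at 1.04 (1.30 and -1.53). All were chosen for a profile like that of SULF1, so their directions are no result.

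The other genes of heparan sulfate metabolism were listed by role: 11 other core proteins, 14 genes of chain synthesis, 20 of sulfation and 15 of release and breakdown, of which 58 of 60 were tested in each experiment. After crowding, 16 of 58 (27.6%) were called, 9 higher and 7 lower, against 16.1% of all genes tested. The difference from all genes depended on the fit. Without low density replicate 2 the count was 9 (15.5%, against 14.3% of all genes), with limma on log2(FPKM + 0.5) it was 7 (12.1% against 10.6%), and with limma on log2(FPKM + 1) it was 3 (5.17% against 7.18%). In the main comparison the log2 fold changes had a median of -0.016. Among the 11 other core proteins 1 rose and 2 fell, where 10.7% of all genes tested rose and 5.47% fell. CD44, a hyaluronan receptor that carries heparan sulfate in some splice forms, was at 2.39 and 2.42 FPKM at low density and at 1.41 and 1.33 FPKM at high density (log2 fold change -0.85, adjusted p = 6.07e-06, quasi-likelihood test of edgeR, Benjamini-Hochberg method). NRP1, a semaphorin and VEGF co-receptor, fell by 0.52 on the log2 scale (adjusted p = 0.00385, same test), but was at -0.49 without high density replicate 1 at -0.43 without low density replicate 2 and at -0.30 with limma on log2(FPKM + 0.5). COL18A1, the matrix collagen with the highest level of the list, was at 72.7 and 76.4 FPKM and then at 61.7 and 57.3 FPKM (log2 fold change -0.38, adjusted p = 1.21e-05, quasi-likelihood test of edgeR), under the threshold on size.

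In chain synthesis 1 of 14 genes rose and 2 fell after crowding, where 10.7% of all genes tested rose and 5.47% fell. EXT1, which with EXT2 forms the polymerase that extends the chain, fell from 12 and 11.4 FPKM to 8.21 and 7.95 FPKM (log2 fold change -0.60, adjusted p = 1.14e-06, quasi-likelihood test of edgeR, Benjamini-Hochberg method), while its partner EXT2 was at 8.82 and 9.47 and then at 8.34 and 7.83 FPKM (-0.17). XYLT1, which adds the first xylose to the core protein, fell from 5.52 and 5.47 FPKM to 3.90 and 3.87 FPKM (log2 fold change -0.56, adjusted p = 6.05e-07, same test). The XYLT1 call was lost with limma on log2(FPKM + 0.5) (-0.45) and log2(FPKM + 1) (-0.41), and the EXT1 call with the latter (-0.49). UXS1, which makes UDP-xylose, had the highest level of the list, at 29.6, 29.4, 27.7 and 26.5 FPKM. In sulfation 4 of 19 tested rose and 2 fell. GLCE, the epimerase that turns glucuronic into iduronic acid, rose from 2.85 and 2.91 FPKM to 4.90 and 4.25 FPKM (log2 fold change 0.62, adjusted p = 7.35e-06, same test). HS3ST5, a 3-O-sulfotransferase, rose by 0.53 on the log2 scale (adjusted p = 0.0269, same test), a call lost in 3 of the 4 fits with a library left out (0.43 without high density replicate 2, 0.44 without low density replicate 1, and an adjusted p of 0.0532 without low density replicate 2) and with limma on log2(FPKM + 0.5) (0.40). HS6ST1, which adds the 6-O-sulfate that the SULF enzymes remove, was at 25.6 and 26.3 FPKM and then at 20.1 and 18.8 FPKM (log2 fold change -0.47, adjusted p = 2.07e-06, same test), short of the threshold on size. PAPSS1, the supplier of the sulfate donor and the most abundant gene of this list, was level at 39.3 and 39.7 against 41.2 and 42.6 FPKM.

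In release and breakdown 3 of 14 tested rose and 1 fell after crowding, where 10.7% of all genes tested rose and 5.47% fell. GDPD5, a phosphodiesterase that cuts GPI anchors and so frees glypicans from the membrane, fell from 3.92 and 4.12 FPKM to 1.72 and 1.72 FPKM (log2 fold change -1.28, adjusted p = 9.16e-09, quasi-likelihood test of edgeR, Benjamini-Hochberg method). IDUA, the lysosomal iduronidase, rose from 0.899 and 0.751 FPKM to 1.47 and 1.60 FPKM (log2 fold change 0.83, adjusted p = 0.00214, same test), but was at 0.47 with limma on log2(FPKM + 1). GUSB, the lysosomal glucuronidase with the highest level of the list, was at 12.9 and 12.3 and then at 14.9 and 15 FPKM (log2 fold change 0.20). The other 8 calls, named after their values were seen, were at means under 1 FPKM: SPOCK2, EXTL1, HS6ST3, HS3ST6, ARSG and NOTUM rose, and HS3ST1 and HS3ST2 fell. Apart from HS6ST3 and NOTUM, each of these lost the call with some library left out. HS6ST3 lost the call with limma on log2(FPKM + 0.5) (0.33) and log2(FPKM + 1) (0.19), and NOTUM with the latter (0.31). SPOCK2 and ARSG lost it without low density replicate 2 (adjusted p = 0.165 and 0.144), HS3ST6 without high density replicate 2 or low density replicate 1 (0.19 and 0.0633), HS3ST1 without any library but high density replicate 2 (0.062 to 0.164), and EXTL1 and HS3ST2 without any library but high density replicate 1 (0.0725 to 0.279 and 0.119 to 0.224).

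After KD, 11 of 58 heparan sulfate genes (19.0%) were called, 5 higher and 6 lower, against 13.0% of all genes tested. The count was 7 (12.1%, against 9.49% of all genes) without shETV4 replicate 2, and the log2 fold changes had a median of -0.11. Of the 11 other core proteins 1 rose and 3 fell, where 5.88% of all genes tested rose and 7.10% fell. SDC3, the remaining syndecan, fell from 13.4 and 13.6 FPKM to 6.81 and 5.44 FPKM (log2 fold change -1.14, SE 0.102, adjusted p = 6.24e-04, quasi-likelihood test of edgeR, Benjamini-Hochberg method), whereas after crowding it was at 9.15, 9.74, 9.53 and 9.46 FPKM (-0.05). SPOCK1, a secreted proteoglycan, fell from 4.30 and 4.12 FPKM to 2.11 and 1.73 FPKM (log2 fold change -1.13, adjusted p = 0.00119, same test). TGFBR3 (betaglycan), the TGF-beta co-receptor, fell from 1.17 and 0.964 FPKM to 0.459 and 0.448 FPKM (log2 fold change -1.22, adjusted p = 0.00355, same test). It is named after its values were seen. COL18A1 rose from 49.6 and 53.5 FPKM to 69.2 and 83.2 FPKM (log2 fold change 0.57, adjusted p = 0.00906, same test) but was at 0.40 without shETV4 replicate 2.

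In chain synthesis, UXS1 rose from 26.6 and 28.8 FPKM to 39.1 and 40.3 FPKM after KD (log2 fold change 0.52, adjusted p = 0.00512, quasi-likelihood test of edgeR, Benjamini-Hochberg method), and was at 0.48 without shControl replicate 1 and at 0.47 without shETV4 replicate 2. EXT2 fell by 0.54 on the log2 scale of counts (adjusted p = 0.00371, same test), but its FPKM values overlapped, at 9.78 and 10 against 7.22 and 9.79, and limma on log2(FPKM + 0.5) gave -0.22. In sulfation, HS3ST5 rose from 0.501 and 0.906 FPKM to 1.66 and 1.70 FPKM (log2 fold change 1.26, adjusted p = 0.0142, same test). HS3ST2, another 3-O-sulfotransferase, named after its values were seen, rose from 0.399 and 0.585 FPKM to 1.18 and 1.61 FPKM (log2 fold change 1.51, adjusted p = 0.00859, same test). HS3ST1, named likewise, fell at under 0.2 FPKM (adjusted p = 0.0484, same test), a call lost with any 1 library left out (adjusted p from 0.0809 to 0.271). In release and breakdown, GDPD5 rose from 2.74 and 2.61 FPKM to 6.14 and 6.80 FPKM (log2 fold change 1.26, adjusted p = 7.33e-04, same test), the opposite direction to its fall after crowding. Of 17206 genes tested in both experiments, 160 (0.93%) were called lower after crowding and higher after KD, and 101 (0.587%) lower after both. GPC5, the remaining glypican, was at or under 0.117 FPKM in all 8 libraries and was not called.

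**Figure D4:**
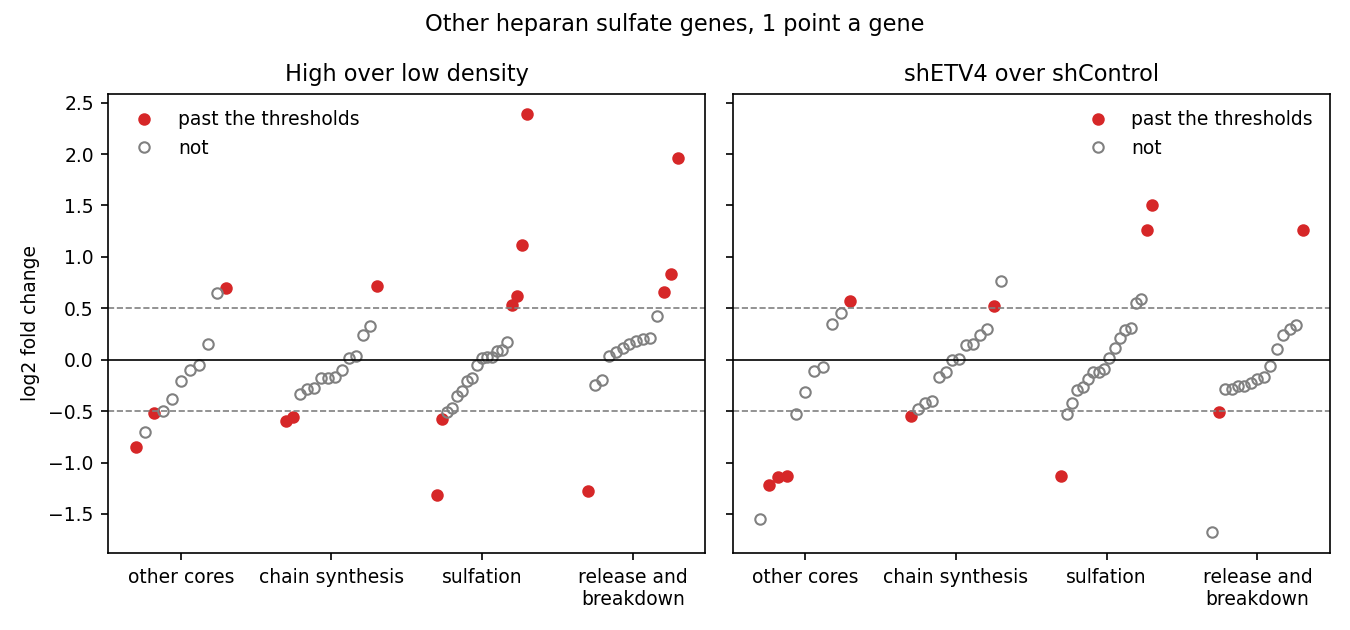
Log2 fold change of the 58 other heparan sulfate genes tested in each experiment, grouped by role and ordered by value within a role. Filled red points passed both thresholds and open points did not, and dashed lines mark 0.5 in either direction. Calls lie in both directions within each role, with 16 of 58 after crowding and 11 of 58 after KD.

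Markers of other cell types were summed in every library. Their counts of calls stand beside 16.1% of all genes tested after crowding and 13.0% after KD. The neuroectoderm list (PAX6, SOX1, OTX2, LHX2, SIX3 and HESX1) summed to 16.9 and 18.2 FPKM at low density, 24.9 and 17.4 FPKM at high density, 4.69 and 6.06 FPKM with shControl, and 18.7 and 23.2 FPKM with shETV4. OTX2 was its most abundant gene and the one of its 4 tested genes called after KD, at 2.50 and 2.81 FPKM with shControl and 15.9 and 19.3 FPKM with shETV4. SOX1 was under 0.07 FPKM and PAX6 under 0.04 FPKM wherever listed. After crowding 2 of its 4 tested genes were called, SOX1 higher and LHX2 lower, both at under 0.2 FPKM. The fibroblast list (COL1A1, COL1A2, COL3A1, LUM, DCN and PDGFRB) summed to 38.9 and 38.2 FPKM at low density, 30.8 and 31.0 FPKM at high density, 37 and 39.1 FPKM with shControl, and 57.4 and 53.1 FPKM with shETV4. Its most abundant gene, COL1A1, was at 27.8, 27.2, 21.4 and 20.8 FPKM over the density libraries and at 21.5, 22.4, 44.9 and 42.8 FPKM over the hairpin libraries. PDGFRB was called lower in both experiments and COL1A1 higher after KD, of 3 genes tested in each. The third, COL1A2, was at 12.9 and 14.0 FPKM with shControl and at 10.4 and 8.63 FPKM with shETV4. Its log2 fold change of -0.496 was just short of the threshold on size, and after crowding it was at 0.02. The calls of some markers were lost with a single library left out: LHX2 with any of the density libraries, SOX1 without low density replicate 2 (adjusted p = 0.0504, edgeR), and PDGFRB after KD without either shControl library (adjusted p = 0.0839 and 0.0728) or without shETV4 replicate 2 (log2 fold change -0.41). LUM and DCN are listed in neither table, and each table lists genes with at least 1 read in every library. The mesendoderm list summed to between 0.431 and 1.19 FPKM in all 8 libraries, with FOXA2 called lower after crowding at under 0.3 FPKM. The pluripotent list had 0 of 8 genes called after crowding by edgeR and by DESeq2, with an unadjusted p below 0.05 by edgeR for 6 of them and changes below the threshold on size, and 3 of 8 after KD, where LIN28A was higher and DNMT3B and TDGF1 were lower. The part of these markers in the values of the glypicans, syndecans and SULF enzymes was not tested.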

How the data were processed

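The data are 8 poly-A RNA-seq libraries of H9 hESCs, 2 in each of 4 groups, from 2 experiments. The authors prepared stranded libraries, trimmed paired reads with Trimmomatic, and used HISAT2 2.1.0 and StringTie 2.1.3b on GRCh37 (tools and build per the submitters' processing notes). The authors deposited 1 table per experiment, with raw read counts per gene and FPKM, which the authors scaled by transcript length and mapped reads. The strand setting of the counting is not given in the sources used here. The 16 other per-sample columns (TPM and normalized log values) and the authors' fold changes and p-values were not used.

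Groups came from the sample labels. Counts were tested within each table with edgeR 4.0.16 (R 4.3.3) by its quasi-likelihood test (TMM scaling, filterByExpr, glmQLFit with robust estimation, glmQLFTest) and Benjamini-Hochberg adjustment over all 17672 (crowding) and 17879 (KD) genes tested, of 19472 and 19551 listed. A call needed a log2 fold change over 0.5 in size and an adjusted p below 0.05, the study's thresholds. The biological coefficient of variation was 6.83% and 9.93%. Replicates differed beyond counting noise (a chi-square divided by its degrees of freedom of 5.69 and 12 at low and high density, 9.12 and 22.8 with shControl and shETV4), so none was taken for another deposited again. At 50359703 to 62410168 counts per library the 10 genes had between 159 and 42183 counts, and the spread between libraries rather than counting limited the precision. The code was tested on simulated data. Python 3.11.15 and pandas 2.3.3 made the tables.

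The 10 genes and all gene lists were chosen with earlier results of these data known. Genes named were all 10, ETV4, the markers, of each list the called genes at a mean of 1 FPKM or more (up to 4 of the largest changes) and its most abundant gene, and the 5 genes nearest to SULF1, which of the 10 genes also had the largest change after crowding. The result of 1 gene that this rule selects is not reported here. Positions are from GENCODE 44 lifted to GRCh37, where 18598 of 20344 symbols matched. Alternatives were DESeq2's size factors, library totals alone, the DESeq2 1.42.0 Wald test, no low-count filter, a replicate block, limma 3.58.1 on log2(FPKM + 0.5) or log2(FPKM + 1), an absolute log2 fold change over 1, and each library left out.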

Additional observations from a re-analysis of the deposited data

How the results depend on the processing

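After crowding, 2851 genes, 6 of the 10 genes and 16 other heparan sulfate genes were called. With an absolute log2 fold change over 1 these were 1135, 1 and 5, with limma on log2(FPKM + 0.5) the genes were 1879, the 10 genes gave 4 and the heparan sulfate genes 7, and with limma on log2(FPKM + 1) 1268, 4 and 3. With 1 library left out the counts ranged from 2407 to 3408 for all genes, from 5 to 6 for the 10 genes and from 9 to 15 for the heparan sulfate genes. After KD, 2321, 3 and 11 were past the thresholds. Over 1 these were 761, 1 and 7, and with limma on log2(FPKM + 1) 1321 genes were called. With 1 library left out they ranged from 1587 to 3390, from 2 to 4 and from 7 to 15. With library totals alone the 3 of the 10 genes after KD split into 1 higher and 2 lower, against 2 higher and 1 lower, since GPC3 went to 0.49 and GPC6 to -0.53. SDC4 after crowding, at -6e-05, ranged from -0.0234 to 0.027 with 1 library left out and changed sign with library totals alone (0.0462), limma on log2(FPKM + 0.5) (0.0563) and log2(FPKM + 1) (0.0555), no low-count filter (0.0025), and without high density replicate 2 (0.025) or low density replicate 2 (0.027), and passed the test in none of these. Of 404 values of single genes under an alternative after crowding, 325 kept their direction and their side of the thresholds, 73 kept the direction and lost the call, and 6, all of SDC4, changed sign. Of 330 after KD, 25 of genes outside the 10 lost the call. The values of the 10 genes, held against the spread between replicates and not a test, moved by more than it in 10 cases. Those of SDC2 (0.06) and GPC2 (-0.07) crossed 0, to -0.11 without shETV4 replicate 2 and to 0.0074 without shControl replicate 2, and single libraries moved GPC1, GPC3 and GPC6 across the threshold on size. The cause was not tested. The sample titles give replicate numbers but do not say whether these pair the samples. Deviations of libraries with the same number correlated at -0.0414 (crowding) and 0.0856 (KD), which does not settle it. With a replicate block, 2874 genes, 6 of the 10 genes and 15 heparan sulfate genes were called after crowding, and 2901, 3 and 15 after KD. The fits with 1 library left out have a lone library in 1 group, which is taken to vary like the other group. Depth limits the genes under 1 FPKM, and genes without a read in some library are not listed.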

Other observations

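Of the FGF receptors and ligands, which bind heparan sulfate, 1 of 8 tested genes rose after crowding (12.5%). Of all genes tested, 10.7% were called higher and 16.1% in either direction. FGF4, a ligand made by pluripotent cells, went from 1.09 and 1.15 FPKM at low density to 5.68 and 6.26 FPKM at high density (log2 fold change 2.36, SE 0.111, adjusted p = 1.57e-12, quasi-likelihood test of edgeR, Benjamini-Hochberg method). FGFR1, the most abundant receptor of the list, was at 66.6 and 68.3 FPKM and then at 96.8 and 91.0 FPKM. Its log2 fold change of 0.43 (adjusted p = 1.45e-06, same test) was under the threshold on size alone. Of the 8 genes, 7 had a log2 fold change above 0 and 1 below, where 8891 of all 17672 genes tested were above 0. After KD, 1 of 7 tested genes was lower (14.3%, against 7.10% of all genes tested called lower and 13.0% called in either direction), again FGF4, at 0.766 and 0.729 FPKM with shControl and 0.220 and 0.337 FPKM with shETV4 (log2 fold change -1.41, adjusted p = 0.0113, same test). It is named there after its values were seen, and FGFR1 was at 66.2, 65.8, 68.3 and 62.4 FPKM.

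Of the WNT target genes, a read-out of a pathway that glypicans and SULF enzymes modulate, 5 of 6 tested rose after crowding, against 10.7% of all genes tested. The count depended on the fit. AXIN2, the feedback inhibitor of the pathway, rose from 7.42 and 6.80 FPKM to 17.5 and 15.9 FPKM (log2 fold change 1.18, adjusted p = 6.67e-11, quasi-likelihood test of edgeR, Benjamini-Hochberg method). TCF7, a nuclear effector, rose by 0.51 on the log2 scale (adjusted p = 3.84e-04, same test), and was at 0.49 without high density replicate 2. NKD1, RNF43 and LEF1, at means under 1 FPKM and named after their values were seen, rose as well, and ZNRF3 was at 4.55, 4.73, 4.22 and 4.27 FPKM. With limma on log2(FPKM + 0.5) the calls of NKD1 (0.345), RNF43 (0.476) and LEF1 (0.355) were lost. With limma on log2(FPKM + 1) that of TCF7 (0.4455) was lost as well, while AXIN2 kept its call in both fits. After KD, 1 of 6 rose, against 5.88% of all genes tested, which was AXIN2, from 5.09 and 5.07 FPKM to 7.95 and 7.86 FPKM (log2 fold change 0.65, adjusted p = 0.00311, same test). The 6 genes had a median log2 fold change of -0.12 after KD, with 3 above 0 and 3 below. Those below were LEF1 (-1.08), RNF43 (-0.57) and NKD1 (-0.29), all under 1 FPKM and not called. Of 5 cytoplasmic partners of syndecans (SDCBP, SDCBP2, GIPC1, CASK and PRKCA) 0 were called in either experiment, against 16.1% (crowding) and 13.0% (KD) of all genes tested. DESeq2 also called 0 in each, and 1 of the 5 had an unadjusted p below 0.05 by edgeR in each experiment. SDCBP (syntenin), the most abundant, was at 35.7, 36.5, 38.0 and 38.4 FPKM over the density libraries and at 48.0, 49.2, 57.5 and 53.5 FPKM over the hairpin libraries.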
